A study of Mus musculus with 26 samples.

Results

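The effect of the histone deacetylase (HDAC) inhibitor Romidepsin on gene transcription in the rd10 mouse retina was compared with the effect of UNC0642, an inhibitor of the histone methyltransferases EHMT2 and EHMT1. For every gene, the log2 fold change of Romidepsin-treated retinas against their own saline controls was reduced by the log2 fold change of UNC0642-treated retinas against theirs. This quantity is called the difference here. It is positive where a gene rose more, or fell less, after Romidepsin than after UNC0642. The comparison used 10 of the 26 libraries of the study, chosen by their labels: 3 Romidepsin controls, 3 Romidepsin retinas, 2 UNC0642 controls and 2 UNC0642 retinas. All were whole retinas of mice with the genotype B6.CXB1-Pde6brd10/Jrd10, a model of retinitis pigmentosa in which a mutation in the rod phosphodiesterase gene Pde6b makes rods die early. Controls carry the same mutation as treated mice. Injections were intraperitoneal and daily from PN9, retinas were collected at PN24, and controls received saline. The labels place Romidepsin and UNC0642 in 2 separate groups, each with controls of its own, so no library entered both effects. With 2 UNC0642 retinas and 2 controls, the UNC0642 side of the difference was the less precise one.

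HDAC1 and HDAC2 remove acetyl groups from histone tails, and Romidepsin is a selective inhibitor of these class I enzymes. EHMT2 and EHMT1 (GLP) add methyl groups to lysine 9 of histone H3, a mark of silent genes, and UNC0642 blocks both enzymes. Acetylation and this methylation are separate marks, the former found on active and the latter on silent chromatin. In the retina, rods and cones capture light, the retinal pigment epithelium (RPE) recycles the chromophore, Müller glia respond to photoreceptor loss with reactive gliosis, and microglia clear dying cells. Immediate-early genes are transcribed within minutes of growth factor, stress or activity signals and encode short-lived transcription factors such as FOS, JUN and EGR proteins.

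Between 13732959 and 24289415 reads were counted per library, so that 3 counts, taken as the floor of detection, correspond to 0.12 to 0.212 CPM, the count scaled to the size of the library. All CPM values below include TMM factors, and 16836 genes were tested. The labelled tissue was checked against its markers, and Rbp3, a gene of photoreceptors, stood between 3533 and 8567 CPM in all 10 libraries. Xist, transcribed from the inactive X chromosome of females, was between 406 and 882 CPM in 7 libraries and under 0.2 CPM in Romidepsin controls 1 and 2 and Romidepsin retina 2, the 3 libraries in which the Y-linked genes Ddx3y, Kdm5d, Eif2s3y and Uty were counted. All 4 libraries of the UNC0642 experiment were of the female kind.

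The control retinas of the 2 experiments differed from each other. The quasi-likelihood test called 34 genes higher (0.202% of the genes tested) and 8 lower (0.0475%) in UNC0642 controls than in Romidepsin controls. Here and below, a called gene had an adjusted p under 0.05 together with a log2 value beyond 1 in either direction. Without an adjustment, 8.02% of genes were higher and 4.89% lower at p under 0.05. The counts of 34 and 8 fell to 1 and 0 without UNC0642 control 1, to 2 and 1 without Romidepsin control 1 or 3 and to 19 and 1 without Romidepsin retina 3. They rose to 95 and 26 without Romidepsin retina 2, 69 and 24 without Romidepsin control 2 and 66 and 15 without Romidepsin retina 1, and were 30 and 32 without UNC0642 control 2 and 27 and 4 without either UNC0642 retina. Srr, encoding serine racemase, stood at 63.3 to 67.5 CPM in Romidepsin controls and at 26.0 and 30.9 CPM in UNC0642 controls. Trim72 and Slc14a1, a urea transporter, were higher in UNC0642 controls, by 2.35 and 1.51 on the log2 scale. Of 33 rod genes tested, 29 were lower in UNC0642 controls at an unadjusted p under 0.05 and 3 after adjustment, with a median of -0.877, and 20 of 22 genes of reactive gliosis were higher, with a median of 1.39. UNC0642 control 2 stood apart from the other 3 libraries of its experiment in Fbln1 and Dio3, as given with these genes. Whether the 2 experiments differed in litter, time or handling is not given in the sources used here, and such factors cannot be told apart from the choice of drug. Fewer cells of a type and less RNA per cell cannot be told apart in bulk retina.

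No gene was called for the difference by the quasi-likelihood test, in either direction (0% of 16836). The smallest adjusted p-value in that test was 0.183. At an unadjusted p under 0.05 the same test counted 1329 genes (7.89%), 798 with a positive difference (4.74%) and 531 with a negative one (3.15%). The likelihood ratio test, which the authors used for their comparisons and which allows less for uncertainty in the spread, called 42 genes with a positive difference (0.249%) and 17 with a negative one (0.101%). DESeq2 called 36 (0.214%) and 15 (0.0891%). The 2 tools shared 27 of the positive and 15 of the negative genes. In 1062 genes (6.31%) every one of the 9 Romidepsin-minus-control pairs of libraries exceeded every one of the 4 UNC0642 pairs, in 872 (5.18%) every one fell below, together 11.5%. Of the 59 genes called by the likelihood ratio test, 58 were among them, which the choice of these genes on the same libraries favours. The number called depended on single libraries. The test called 207 genes without Romidepsin retina 1, 93 without Romidepsin retina 2, 32 without Romidepsin control 1, 20 without UNC0642 retina 1 and 19 without UNC0642 retina 2. With a term for the sex shown by Xist it called 55, of which 45 were among the 59. Without UNC0642 control 1 it called 75, of which 27 were among the 59. Genes named below that no rule chose were chosen after their values were seen.

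**Figure D1:**
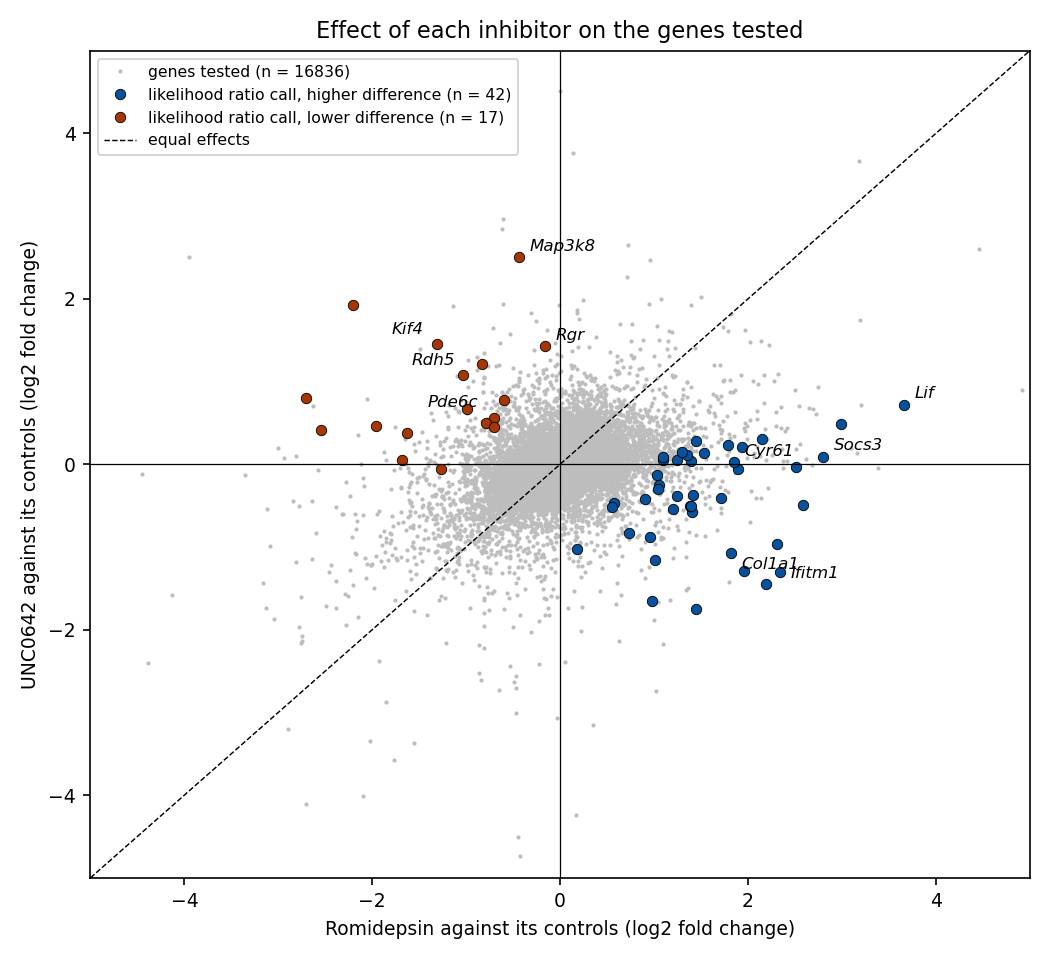
Log2 fold change after Romidepsin (horizontal axis) and after UNC0642 (vertical axis), each against the controls of its own experiment, for 16836 genes (grey points, 4 of them outside the axes). Blue and brown points mark the 42 and 17 genes that the likelihood ratio test called for the difference, which lie off the dashed line of equal effects by the way they were chosen.

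The 2 effects ran in the same direction for 10758 of the 16836 genes (63.9%), and their log2 fold changes had a Pearson's r of 0.362 across genes, which are not independent replicates. Romidepsin moved genes further: the median absolute log2 fold change was 0.211 after Romidepsin and 0.156 after UNC0642. The quasi-likelihood test called 228 genes higher (1.35%) and 91 lower (0.541%) after Romidepsin and none after UNC0642 (0% in each direction), where the likelihood ratio test called 9 (0.0535%) and 5 (0.0297%) and 2.63% of genes were higher and 2.16% lower at an unadjusted p under 0.05. The 228 and 91 were 127 and 21 with the Xist term. Without Romidepsin controls 1, 2 and 3 in turn they were 30 and 11, 72 and 15, and 66 and 12, without Romidepsin retina 3 they were 45 and 3, without Romidepsin retina 1 they were 355 and 173, and without UNC0642 retinas 1 and 2 in turn 153 and 49, and 151 and 49. Of the 228 genes, 174 also had a positive UNC0642 log2 fold change (76.3%, against 49.4% of all genes tested), with a median of 0.205 beside 1.42 after Romidepsin. Of the 91 genes, 73 were negative in both, with a median of -0.596 after UNC0642 and -1.43 after Romidepsin. Since these genes were chosen on the Romidepsin effect, that effect enters the difference by construction, and 166 of the 228 genes and 39 of the 91 had an unadjusted p under 0.05 for the difference, all in the direction of the Romidepsin effect.

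The promoters of 4 genes on which the results below turn are shown, as RefSeq gives them on build GRCm38.p6, from 250 bases before the transcription start to 50 after it, 5′ to 3′ along the gene. Rgr stands for genes highest in UNC0642 retinas, Rbp3 for photoreceptor genes higher after Romidepsin, Cyr61 (now named Ccn1) for the immediate-early genes and Socs3 for those with high UNC0642 controls. Capitals mark the motifs searched on both strands: TAATCC, bound by CRX and OTX2, CATTCC, bound by TEAD factors, TTCNNNGAA, bound by STAT factors, TGANTCA, bound by AP-1, and TATAAA, the TATA box. The windows lie at chr14:37048965-37049264, minus strand, at chr14:33953753-33954052, plus strand, at chr3:145649936-145650235, minus strand, and at chr11:117969317-117969616, minus strand.
Rgr: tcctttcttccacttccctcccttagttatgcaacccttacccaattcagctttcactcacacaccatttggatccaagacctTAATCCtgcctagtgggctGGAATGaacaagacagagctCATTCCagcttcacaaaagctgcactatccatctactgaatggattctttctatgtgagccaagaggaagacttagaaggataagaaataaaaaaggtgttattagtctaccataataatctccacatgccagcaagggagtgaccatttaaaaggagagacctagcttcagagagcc
Rbp3: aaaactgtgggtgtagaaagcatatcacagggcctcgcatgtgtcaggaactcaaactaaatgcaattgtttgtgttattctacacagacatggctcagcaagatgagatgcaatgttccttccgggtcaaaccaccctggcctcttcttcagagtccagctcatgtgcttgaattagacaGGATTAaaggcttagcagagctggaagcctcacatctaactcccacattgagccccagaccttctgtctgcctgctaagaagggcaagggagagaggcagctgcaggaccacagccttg
Cyr61: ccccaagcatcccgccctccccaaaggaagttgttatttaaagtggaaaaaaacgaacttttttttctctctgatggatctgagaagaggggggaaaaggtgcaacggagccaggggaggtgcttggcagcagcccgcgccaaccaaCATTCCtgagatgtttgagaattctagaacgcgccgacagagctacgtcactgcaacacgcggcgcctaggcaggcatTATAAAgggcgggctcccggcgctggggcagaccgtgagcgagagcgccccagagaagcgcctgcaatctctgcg
Socs3: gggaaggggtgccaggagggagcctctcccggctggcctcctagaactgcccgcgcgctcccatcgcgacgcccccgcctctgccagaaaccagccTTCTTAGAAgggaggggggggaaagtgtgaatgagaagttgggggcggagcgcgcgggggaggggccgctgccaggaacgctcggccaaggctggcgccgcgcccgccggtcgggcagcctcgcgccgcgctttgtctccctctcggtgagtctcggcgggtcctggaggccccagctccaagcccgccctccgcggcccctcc

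In Rgr the CRX motif begins 167 bases before the start and 2 TEAD motifs lie at 148 and 128 bases. In Rbp3 the CRX motif begins 69 bases before the start, on the other strand. Cyr61 has a TEAD motif at 103 bases and a TATA box at 25 bases before the start, and Socs3 a STAT motif at 154 bases. Over all 32851 promoters of the table, 7.06% held the CRX motif, 14.7% the TEAD motif, 8.3% the STAT motif, 7.81% the AP-1 motif and 13.6% the TATA box. Promoters were matched for 32 of the 42 genes with a positive difference and 11 of the 17 with a negative one. Among the 32, 3 held the CRX motif, 4 the TEAD motif, 3 the STAT motif, 2 the AP-1 motif and 4 the TATA box. Among the 11, 1 held the CRX motif, 1 the TEAD motif, none the STAT or AP-1 motif and 3 the TATA box (27.3%). A match is a description of these letters and not a binding site or a cause.

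Immediate-early genes rose after Romidepsin, and most had a positive difference. Of the 36 tested, 33 had a positive difference and 17 passed an unadjusted p of 0.05, all positive (4.74% of all genes were), while none passed after adjustment. The median difference was 0.652, against 0.871 for Romidepsin and 0.321 for UNC0642. After Romidepsin, 24 of the 36 were higher at an adjusted p under 0.05 (4.02% of all genes were) and none lower (2.2%). The quasi-likelihood test called 16 of them higher (1.35% of all genes were). After UNC0642, 31 had a positive log2 fold change (49.4% of all genes did). At an unadjusted p under 0.05, 8 were higher (2.63% of all genes were) and none lower (2.16%). With the 5 controls pooled the median difference was 0.38. The mean log2 CPM of the list was 3.84, 4.05 and 3.85 in Romidepsin controls, 4.65, 5.12 and 5.16 in Romidepsin retinas, 4.37 and 4.22 in UNC0642 controls and 4.69 and 4.64 in UNC0642 retinas. Romidepsin retina 1 was the lowest of its group and lay at the level of the UNC0642 retinas.

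Cyr61 (ENSMUSG00000028195, chr3:145309935-145312949 of NCBIM37), which encodes a matrix-associated signalling protein and is a target of the YAP and TEAD transcription factors, had the smallest p-value of the list. It was at 9.18, 11.2 and 11.6 CPM in Romidepsin controls and at 21.8, 45.1 and 48.2 CPM in Romidepsin retinas. In the UNC0642 experiment it was at 14.7 and 17.4 CPM in controls and at 17.3 and 15.4 CPM in treated retinas. The 3 Romidepsin retinas stood above the other 7 libraries, and UNC0642 retinas overlapped their controls. The difference was 1.82 ± 0.405 (SE) on the log2 scale, with an adjusted p of 0.32 in edgeR's quasi-likelihood test, and the likelihood ratio test and DESeq2 both called it. Tead3 (ENSMUSG00000002249, chr17:28468616-28487750), encoding one of the TEAD factors, also had its highest levels in Romidepsin retinas, with 15.8 to 19.7 CPM in Romidepsin controls, 43.9 to 60.5 CPM in Romidepsin retinas, 35.2 and 32.1 CPM in UNC0642 controls and 32.7 and 41.3 CPM in UNC0642 retinas, a difference of 1.40 ± 0.238. Its UNC0642 controls were above all Romidepsin controls.

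Fos, the AP-1 subunit gene (ENSMUSG00000021250, chr12:86814840-86818223), was at 38.5, 54.5 and 40.3 CPM in Romidepsin controls and at 96.5, 153 and 212 CPM in Romidepsin retinas. It was at 69.6 and 51.4 CPM in UNC0642 controls and at 72.7 and 70.2 CPM in UNC0642 retinas. Its Romidepsin retinas stood above all other libraries, with a difference of 1.55 ± 0.398 that both the likelihood ratio test and DESeq2 called. Arc, whose product acts at synapses, rose from 3.16 to 4.01 CPM in controls to 5.89 to 12.3 CPM after Romidepsin, and stood at 4.28 and 3.80 CPM in UNC0642 controls and at 3.81 and 2.76 CPM in UNC0642 retinas, a difference of 1.67 ± 0.431. Btg2, an antiproliferative gene, was at 180 to 192 CPM after Romidepsin and between 108 and 124 CPM in all 7 other libraries, a difference of 0.59 ± 0.132. Egr1, a zinc finger transcription factor gene, was at 98.1 to 130 CPM in Romidepsin controls, 200 to 338 CPM in Romidepsin retinas, 143 and 111 CPM in UNC0642 controls and 165 and 150 CPM in UNC0642 retinas.

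Other immediate-early genes had positive log2 fold changes with both drugs. Fosl1, encoding the AP-1 protein FRA1, was at 0.802 to 1.42 CPM in Romidepsin controls and 4.85, 15.1 and 10.5 CPM in Romidepsin retinas, and at 4.48 and 4.70 CPM in UNC0642 controls and 15.5 and 15.4 CPM in UNC0642 retinas. Its log2 fold change was 3.19 ± 0.396 for Romidepsin and 1.75 ± 0.413 for UNC0642, and the difference of 1.44 ± 0.568 turned to -0.61 when the 5 controls were pooled as 1 group. Myc, the proto-oncogene, behaved likewise, from 0.822 to 2.34 CPM to 4.85 to 11.1 CPM with Romidepsin and from 11.7 and 6.44 CPM to 19.8 and 19.3 CPM with UNC0642, and its difference of 1.23 ± 0.591 became -1.14 with pooled controls. After UNC0642 both genes stood above the highest Romidepsin retina, while their fold change was smaller and their UNC0642 controls began higher. Gadd45b, a stress-response gene, rose from 13.3 to 21.6 CPM to 60.8 to 131 CPM with Romidepsin and stood at 44.4 and 35.6 CPM in UNC0642 controls and at 77.1 and 72.5 CPM in UNC0642 retinas, a difference of 1.60 ± 0.419. Junb, a further AP-1 gene, went from 33.2 to 64.1 CPM to 137 to 285 CPM with Romidepsin, and was at 122 and 96.3 CPM in UNC0642 controls and at 166.5 and 171 CPM in UNC0642 retinas, a difference of 1.67 ± 0.447. For Fosb the difference was 0.91 ± 0.332, and for Gadd45a, whose UNC0642 and Romidepsin effects were 0.59 and 0.85, it was 0.27 ± 0.262. None of these 6 passed the adjustment for the difference in the quasi-likelihood test, where edgeR's adjusted p-values ran from 0.418 to 0.875, and DESeq2 called Gadd45b and Junb.

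**Figure D2:**
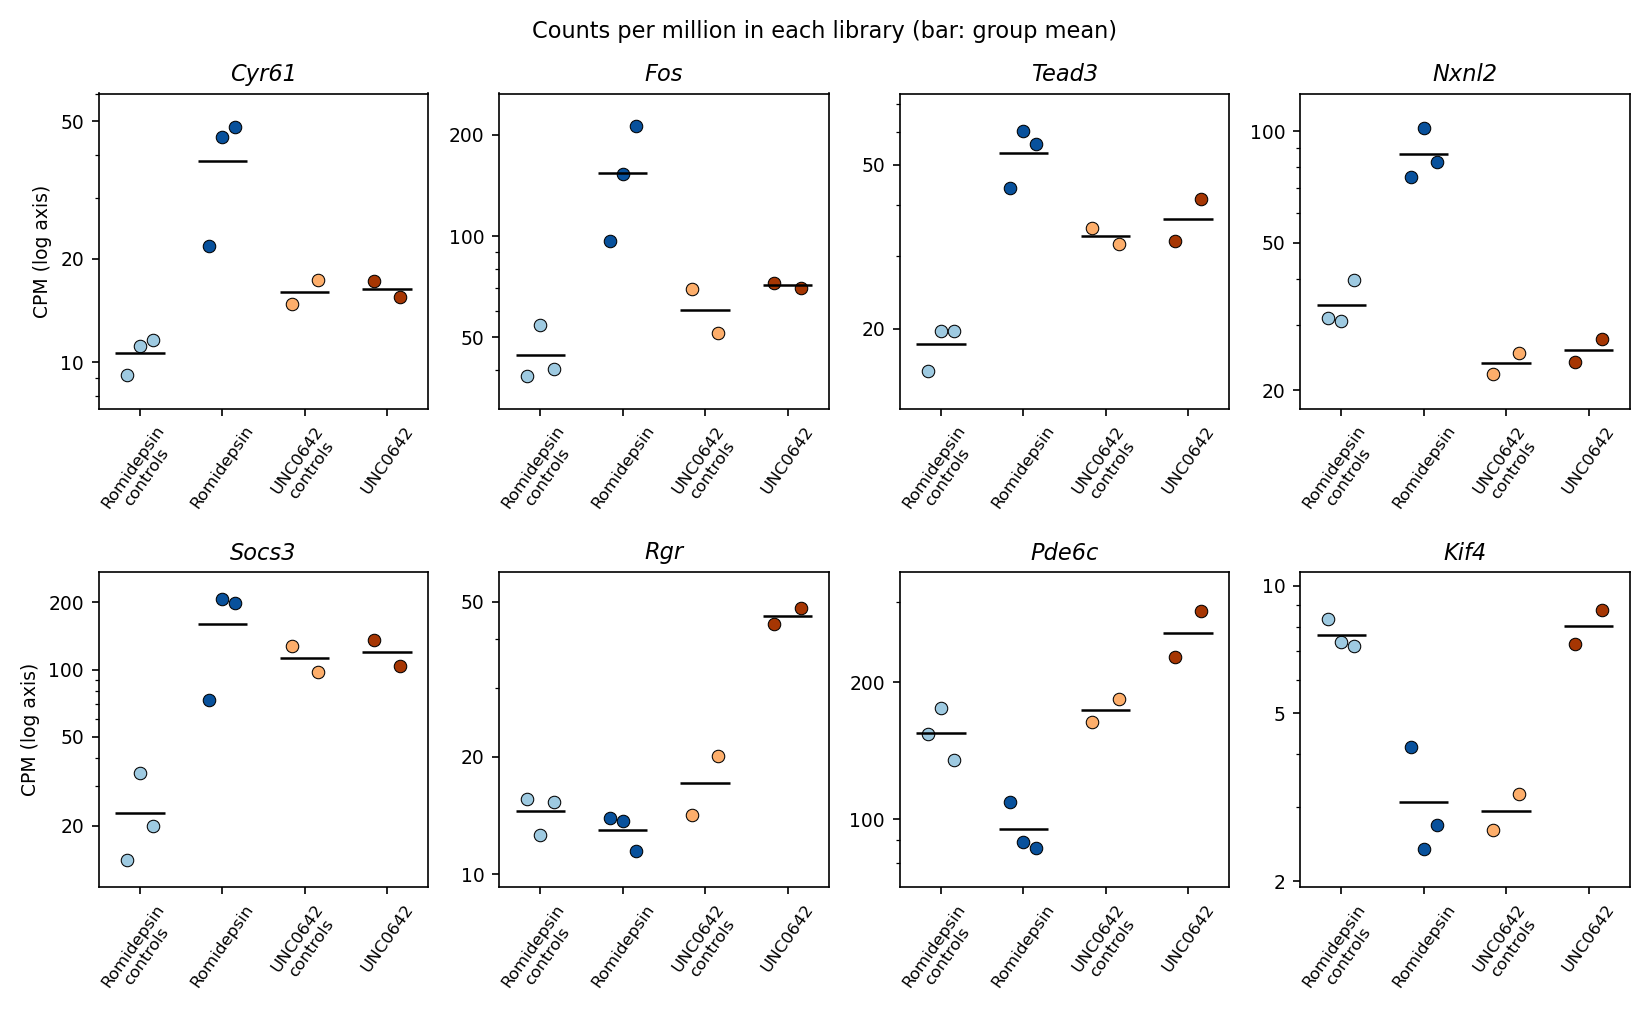
CPM of 8 genes in each of the 10 libraries, on log axes, with a bar at the mean of each group. Romidepsin retinas stood above all other libraries for Cyr61, Fos, Tead3 and Nxnl2, the UNC0642 libraries lay in the range of the Romidepsin retinas for Socs3, and UNC0642 retinas stood above all others for Rgr and Pde6c. For Kif4, Romidepsin controls lay beside UNC0642 retinas and UNC0642 controls beside Romidepsin retinas.

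Reactive gliosis genes had mostly positive differences, and most were higher in UNC0642 controls than in Romidepsin controls. Of 22 gliosis genes tested, 20 had a positive difference, 7 at an unadjusted p under 0.05 (4.74% of all genes were) and none after adjustment, with a median difference of 0.604. With the 5 controls pooled the median difference was -0.69. Against its own controls, Romidepsin had a median log2 fold change of 0.729, with 18 of the 22 genes positive. At an adjusted p under 0.05, 9 were higher (4.02% of all genes were) and none lower (2.2%). The median for UNC0642 was -0.0338, with 10 of the 22 positive. Socs3, a feedback inhibitor of cytokine signalling through STAT3 (ENSMUSG00000053113, chr11:117827393-117831361), was at 14.0, 34.5 and 20.0 CPM in Romidepsin controls and at 73.2, 208 and 198.5 CPM in Romidepsin retinas. It was already at 127 and 97.9 CPM in UNC0642 controls and stayed at 136 and 104 CPM in UNC0642 retinas. Every UNC0642 library, treated or not, thus lay within the range of the Romidepsin retinas, and the difference of 2.71 ± 0.621 was 0.42 with pooled controls. It was called by the likelihood ratio test and not by DESeq2. Bcl3, an NF-kB regulator, was at 5.55 to 16.9 CPM in Romidepsin controls, 31.2 to 88.4 CPM in Romidepsin retinas, 60.1 and 44.8 CPM in UNC0642 controls and 55.4 and 47.0 CPM in UNC0642 retinas. Lif, the cytokine through which Müller glia signal to photoreceptors, was at 2.73 to 5.45 CPM in Romidepsin controls and 19.8 to 67.5 CPM in Romidepsin retinas, against 40.0 and 17.1 CPM in UNC0642 controls and 65.5 and 28.7 CPM in UNC0642 retinas.

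Edn2, an endothelin that stressed photoreceptors release, was at 27.2 to 29.8 CPM in Romidepsin controls and at 40.6 to 72.8 CPM in Romidepsin retinas. It was at 97.4 and 69.6 CPM in UNC0642 controls and at 64.35 and 60.8 CPM in UNC0642 retinas. Its effects therefore had opposite signs, 0.91 ± 0.204 and -0.42 ± 0.244, and the difference of 1.32 ± 0.319 turned to -0.23 with pooled controls. Col1a1, a chain of type I collagen, was at 2.07 to 2.78 CPM in Romidepsin controls, 7.501 to 10.5 CPM in Romidepsin retinas, 7.53 and 10.6 CPM in UNC0642 controls and 6.21 and 2.27 CPM in UNC0642 retinas, a difference of 2.89 ± 0.506. Spp1, encoding osteopontin, was at 29.7 to 80.3 CPM, 102.5 to 179 CPM, 177 and 209.5 CPM, and 143 and 129 CPM in the same order of groups. Of the 42 genes with a positive difference in the likelihood ratio test, 30 had both UNC0642 controls above all 3 Romidepsin controls (71.4%, against 19.7% of all genes tested), and in 26 the Romidepsin retinas stood above all other 7 libraries (61.9%, against 6.52%), which the way these genes were chosen favours.

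Over the 47 matrix genes tested the median difference was 0.164, which turned to -0.0396 with pooled controls and to -0.102 without UNC0642 control 2, and was 0.368 without UNC0642 control 1. At an unadjusted p under 0.05, 5 genes were higher (4.74% of all genes) and 4 lower (3.15%). After UNC0642, 14 of the 47 were lower at that level (2.16% of all genes were) and 1 higher (2.63%). After Romidepsin 4 of the 47 were lower (2.2% of all genes) and 2 higher (4.02%) at an adjusted p under 0.05. The higher count was close to its share, and the lower count was above its share. Fbln1, encoding fibulin 1, had the largest value of the list, 4.32 ± 1.469, and 1 library set it. It was between 150 and 304 CPM in the 6 libraries of the Romidepsin experiment, at 244 CPM in UNC0642 control 2, and at 5.37, 4.25 and 5.10 CPM in UNC0642 control 1 and the UNC0642 retinas. Dio3, the deiodinase that inactivates thyroid hormone, showed the same split, at 5.07 CPM in UNC0642 control 2 and at 0.440, 1.03 and 0.921 CPM in the other 3 libraries of that experiment. Dio3 was at 6.26 to 8.49 CPM in Romidepsin controls and at 20.6 to 31.3 CPM in Romidepsin retinas. Without UNC0642 control 1 the quasi-likelihood test called Fbln1, Dio3 and Ism2 for the difference, and called 19 genes lower after UNC0642 where it otherwise called none. UNC0642 control 2, which stands apart in these genes, was then the lone UNC0642 control, and was assumed to vary like the libraries of the other groups.

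Most rod genes had a positive log2 fold change after Romidepsin, a minority of them passed the adjustment, and the median difference was small. Of 33 rod genes tested, 27 had a positive difference, 5 at an unadjusted p under 0.05 (4.74% of all genes were) and none after adjustment, with a median of 0.199 that was 0.00228 without UNC0642 retina 1 and 0.425 without UNC0642 retina 2. Medians were 0.421 for Romidepsin and 0.203 for UNC0642. After Romidepsin 31 of the 33 genes were positive, 9 were higher at an adjusted p under 0.05 (4.02% of all genes were) and none lower. After UNC0642 27 genes were positive, and 1 was higher at an unadjusted p under 0.05 (2.63% of all genes were). With pooled controls the median difference was 1.03. Mean log2 CPM of the list was 8.82 to 9.27 in Romidepsin controls, 9.31 to 9.70 in Romidepsin retinas, 8.21 and 8.27 in UNC0642 controls and 8.26 and 8.63 in UNC0642 retinas. All 4 UNC0642 libraries were thus below every library of the other experiment. Pde6b, the mutated gene, was at 478.5 to 743.6 CPM in Romidepsin controls and at 912.9 to 1062 CPM in Romidepsin retinas, and at 317.5 and 310.3 CPM in UNC0642 controls and 372.4 and 499.8 CPM in UNC0642 retinas. Its effects of 0.67 ± 0.161 and 0.47 ± 0.197 left a difference of 0.20 ± 0.254, and Pdc, encoding phosducin, had one of 0.38 ± 0.305. Without UNC0642 retina 1 the differences were 0.002282 for Pde6b and 0.07905 for Pdc, and without UNC0642 retina 2 they were 0.4248 and 0.7639.

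Rbp3, which encodes the retinoid carrier of the space between photoreceptors and RPE, had the smallest p of the rod list. It was at 3678, 3593 and 3885 CPM in Romidepsin controls and at 5958, 5933 and 8567 CPM in Romidepsin retinas, against 3672 and 3533 CPM in UNC0642 controls and 3748 and 4073 CPM in UNC0642 retinas. Both UNC0642 controls lay within or just below the range of the Romidepsin controls. The difference was 0.76 ± 0.214, with an adjusted p of 0.447 in edgeR's quasi-likelihood test. The difference was 0.77 ± 0.261 for Nr2e3, a nuclear receptor that represses cone genes in rods, 0.67 ± 0.217 for Ptp4a3, 0.63 ± 0.268 for Guca1a, an activator of guanylate cyclase, and 0.29 ± 0.199 for Aipl1, a chaperone of phosphodiesterase. Nxnl2 (ENSMUSG00000021396, chr13:51266394-51270556), which encodes a thioredoxin-like photoreceptor survival factor and is outside the list, was at 30.7 to 39.6 CPM in Romidepsin controls and 75.4 to 102 CPM in Romidepsin retinas, and between 22.2 and 27.6 CPM in the 4 UNC0642 libraries. Its difference of 1.24 ± 0.230 was called by the likelihood ratio test and DESeq2.

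**Figure D3:**
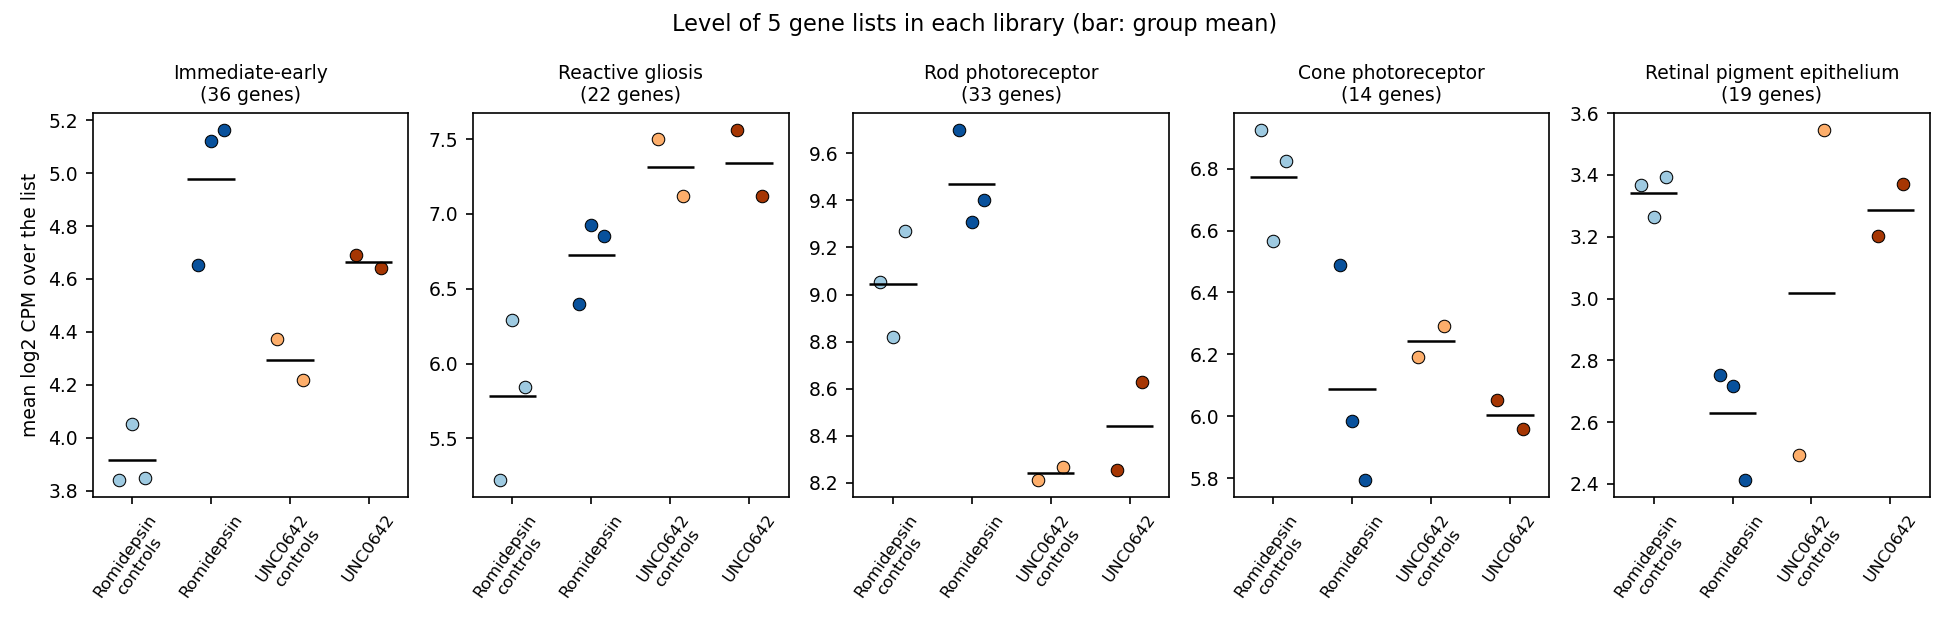
Mean log2 CPM over the genes of 5 lists in each of the 10 libraries, with a bar at the mean of each group. Romidepsin retinas were highest for immediate-early genes except for 1 library, gliosis genes were higher and rod genes lower in all 4 UNC0642 libraries than in the 6 others, and for genes of the retinal pigment epithelium 1 UNC0642 control lay at the low level of the Romidepsin retinas.

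Cone genes and genes of the RPE had mostly negative differences. Of 14 cone genes tested, 10 were negative and 2 passed an unadjusted p of 0.05, both lower (3.15% of all genes were), with a median difference of -0.397 that turned to 0.214 with pooled controls. Without Romidepsin retina 1 it was -0.781. After Romidepsin 5 were lower at an adjusted p under 0.05 (2.2% of all genes) and none higher. Pde6c, the catalytic subunit of the cone phosphodiesterase (ENSMUSG00000024992, chr19:38207271-38258437), was at 154, 176 and 135 CPM in Romidepsin controls and at 109, 89.3 and 86.7 CPM in Romidepsin retinas. It was at 163 and 184 CPM in UNC0642 controls and at 226.5 and 286 CPM in UNC0642 retinas. The 2 control groups overlapped, the treated retinas lay on opposite sides of them, and the effects were -0.70 ± 0.137 and 0.56 ± 0.167. The difference was -1.27 ± 0.216, with an adjusted p of 0.225 in edgeR's quasi-likelihood test, and the likelihood ratio test and DESeq2 called it. Cnga3, a subunit of the cone cyclic nucleotide-gated channel, followed the same order, with 25.8 to 30.6 CPM and 13.5 to 21.2 CPM in the Romidepsin experiment and 28.2 and 30.3 CPM and 37.5 and 42.6 CPM in the UNC0642 experiment.

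Other cone genes such as Gnat2 and Opn1mw did not share this order. Gnat2, the cone transducin gene, had negative effects with both drugs, from 145 to 167 CPM to 65.4 to 121 CPM with Romidepsin and from 108 and 117 CPM to 65.8 and 47.2 CPM with UNC0642. The effects were -0.82 ± 0.203 and -0.99 ± 0.251, the former at an adjusted p of 0.0426 and the latter at 0.91 in edgeR's quasi-likelihood test. The cone opsin gene Opn1mw, which was at 181 to 242 CPM in Romidepsin controls and 82.5 and 85.7 CPM in UNC0642 controls, had effects of -1.02 ± 0.234 and -0.61 ± 0.288, and its difference of -0.41 ± 0.369 turned to 0.97 with pooled controls. Within the cone list of 14 genes, Pde6c and Cnga3 alone were raised after UNC0642 at an unadjusted p under 0.05 (2.63% of all genes were). Gnat2 alone was lowered at that level (2.16%), and no cone gene passed the adjustment for UNC0642.

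Of 19 RPE genes tested, 15 had a negative difference, 9 at an unadjusted p under 0.05 (3.15% of all genes were) and none after adjustment. The median difference was -1.14, with -0.657 for pooled controls, -0.683 without UNC0642 control 1 and -1.85 without UNC0642 control 2. After Romidepsin 3 of the 19 were lower (2.2% of all genes were) and 1 higher (4.02%) at an adjusted p under 0.05. After UNC0642 5 were higher (2.63% of all genes were) and none lower (2.16%) at an unadjusted p under 0.05. In 10 of the 19 all pairs of libraries were lower for Romidepsin, against 5.18% of all genes. Rgr, which encodes an opsin of RPE and Müller glia that isomerises retinal (ENSMUSG00000021804, chr14:37850676-37862150), was at 15.6, 12.6 and 15.3 CPM in Romidepsin controls and at 13.9, 13.7 and 11.5 CPM in Romidepsin retinas. It was at 14.2 and 20.1 CPM in UNC0642 controls and at 43.8 and 48.2 CPM in UNC0642 retinas. The 8 other libraries were at or under 20.1 CPM. The log2 fold change was 1.43 ± 0.187 with UNC0642, at an adjusted p of 0.25 in edgeR's quasi-likelihood test, and -0.16 ± 0.156 with Romidepsin. The difference was -1.58 ± 0.242, with an adjusted p of 0.225 in that test. It ran from -1.85 to -1.35 when single libraries were left out. The likelihood ratio test and DESeq2 called both the UNC0642 effect and the difference of Rgr.

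Rdh5, the 11-cis-retinol dehydrogenase of the RPE, was at 5.88 to 7.13 CPM in Romidepsin controls and 2.28 to 3.87 CPM in Romidepsin retinas, and at 5.17 and 10.1 CPM in UNC0642 controls and 15.1 and 17.0 CPM in UNC0642 retinas, a difference of -2.10 ± 0.413. Stra6, the receptor for retinol-binding protein, went from 10.9 to 11.5 CPM to 5.43 to 7.39 CPM with Romidepsin and from 9.81 and 13.6 CPM to 17.7 and 15.2 CPM with UNC0642. Dct, a melanin synthesis gene, was at 28.3 to 32.9 CPM in Romidepsin controls and 7.52 to 16.2 CPM in Romidepsin retinas, with 20.9 and 44.9 CPM in UNC0642 controls and 27.9 and 39.2 CPM in UNC0642 retinas. Rpe65, the visual cycle isomerase, was at 5.19 to 6.03 CPM and 1.19 to 2.83 CPM in the Romidepsin experiment, and at 1.44 and 4.38 CPM in UNC0642 controls and 4.85 and 3.97 CPM in UNC0642 retinas. UNC0642 control 1 was low for Dct and Rpe65, and the mean log2 CPM of the list was 2.49 in it and 3.54 in UNC0642 control 2. Retinas are dissected off the RPE, and how much of it stayed on each retina was not tested. Krt18 and Rdh10, also on the list, had differences of 0.20 ± 0.262 and 0.49 ± 0.262, and the largest difference of the list was 0.889. The mean log2 CPM of the list was 3.264 to 3.392 in Romidepsin controls and 2.414 to 2.753 in Romidepsin retinas. Its summed CPM, which the most abundant genes set, did not fall, at 527.5 to 574.4 in these controls and 545.3 to 619.4 in these retinas.

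**Figure D4:**
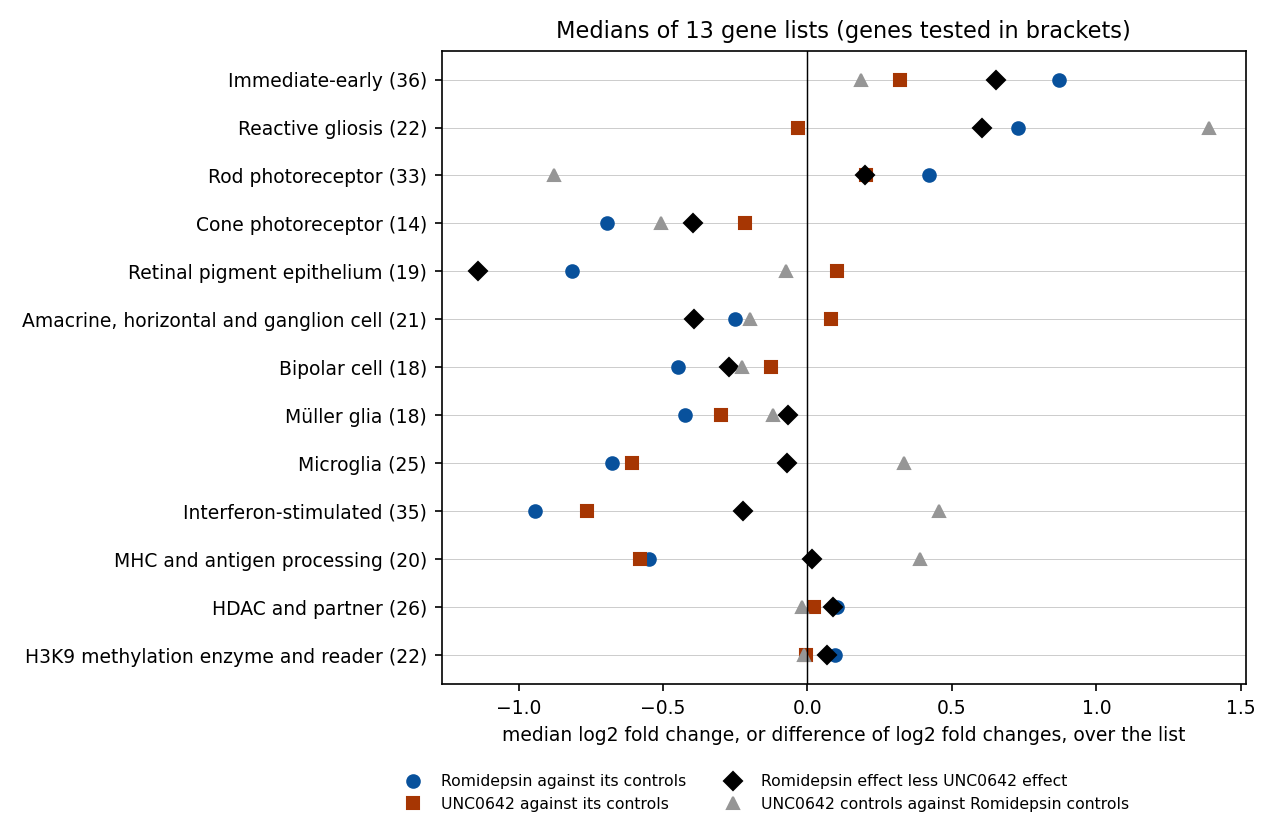
Median over the genes of 13 lists of the log2 fold change of each inhibitor, of the difference between them and of the control groups against each other. Of the 13 lists drawn, medians of the difference were farthest from 0 for genes of the retinal pigment epithelium (-1.14), immediate-early genes (0.652) and reactive gliosis genes (0.604), while microglia, interferon and MHC genes had negative medians for both inhibitors.

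Several genes outside these lists had negative differences in the likelihood ratio test. Kif4, a kinesin of the mitotic chromosomes on the X chromosome (ENSMUSG00000034311, chrX:97821076-97922553), had the smallest p-value of all genes tested. It was at 8.36, 7.35 and 7.22 CPM in Romidepsin controls and fell to 4.15, 2.38 and 2.71 CPM in Romidepsin retinas. It was at 2.64 and 3.22 CPM in UNC0642 controls and at 7.295 and 8.78 CPM in UNC0642 retinas. The Romidepsin controls thus matched the UNC0642 retinas and the UNC0642 controls the Romidepsin retinas. The difference was -2.77 ± 0.35, with an adjusted p of 0.183 in edgeR's quasi-likelihood test, and the likelihood ratio test and DESeq2 called it. Without Romidepsin retina 1 the quasi-likelihood test called 2 genes, Kif4 and Cyr61. Map3k8, a kinase of inflammatory signalling, was between 2.89 and 7.35 CPM in 8 libraries and at 26.0 and 51.9 CPM in the UNC0642 retinas, a difference of -2.94 ± 0.498. Mob3b was at 18.1 to 19.1 CPM in Romidepsin controls, 5.78 to 9.17 CPM in Romidepsin retinas and 14.9 to 18.6 CPM in the UNC0642 libraries. Of the 17 genes with a negative difference, the Romidepsin retinas were below all other libraries in 12 (70.6%, against 4.34% of all genes tested) and the UNC0642 retinas above all others in 9 (52.9%, against 6.02%), which the way these genes were chosen also favours.

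Genes of inner retinal neurons had mostly negative differences. Of 21 genes of amacrine, horizontal and ganglion cells tested, 20 had a negative difference and 8 passed an unadjusted p of 0.05, all lower (3.15% of all genes were), with a median of -0.392. After Romidepsin 5 genes were lower at an adjusted p under 0.05 (2.2% of all genes) and none higher, and the median was -0.25, against 0.0809 after UNC0642. Pou4f1, a transcription factor of ganglion cells, was at 54.5 to 65.1 CPM in Romidepsin controls and 39.8 to 41.4 CPM in Romidepsin retinas, and between 50.2 and 57.8 CPM in the UNC0642 libraries, a difference of -0.54 ± 0.158. Of 18 bipolar cell genes, 15 were negative, 5 at an unadjusted p under 0.05 (3.15% of all genes) with 1 higher (4.74%), and the median was -0.272, or -0.123 without UNC0642 retina 1. Cabp5, a calcium-binding protein of bipolar cells, was at 139 to 157 CPM and 91.2 to 120 CPM in the Romidepsin experiment and at 101.5 and 106 CPM and 120 and 123 CPM in the UNC0642 experiment, a difference of -0.69 ± 0.169. Rod genes, which hold far more reads, were higher in the same Romidepsin retinas, and their part in these values was not tested.

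Of 18 Müller glia genes tested, 9 fell after Romidepsin, at an adjusted p under 0.05 (2.2% of all genes did). After UNC0642 none passed the adjustment, and 9 were lower at an unadjusted p under 0.05 (2.16% of all genes were). Medians were -0.423 and -0.298, and the median difference was -0.0666, or 0.0906 with pooled controls and 0.0287 without UNC0642 retina 1. Glul, the glutamine synthetase gene, was at 2674 to 3900 CPM in Romidepsin controls, 1846 to 2476 CPM in Romidepsin retinas, 961.5 and 1502 CPM in UNC0642 controls and 723.3 and 737.5 CPM in UNC0642 retinas, a difference of 0.06 ± 0.297. Rlbp1, the retinaldehyde-binding protein, was the member with the smallest p. It was at 603 to 710 CPM in Romidepsin controls and 357 to 471 CPM in Romidepsin retinas, and between 524 and 599 CPM in the UNC0642 libraries, a difference of -0.72 ± 0.182.

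No gene of the immune lists passed the adjustment for the difference. None of the microglia (25 tested), MHC (20) or interferon-inducible GTPase (15) genes had an unadjusted p under 0.05 for the difference, and 1 of the 35 interferon-stimulated genes did. Over all genes the share was 7.89%, at which lists of this size hold few such genes, so these counts decide little. Median effects were -0.676 and -0.607 for microglia genes, -0.549 and -0.58 for MHC and antigen processing genes, and -0.943 and -0.762 for interferon-stimulated genes, in each case Romidepsin first. The spread was wide, with a median difference for interferon-stimulated genes that ran from -0.724 to 0.384 when single libraries were left out, so that these values do not show equal effects. Medians for microglia, MHC and interferon-inducible GTPase genes changed sign likewise, with -0.389 to 0.29, -0.353 to 0.413 and -0.655 to 0.396. Cx3cr1, a microglial chemokine receptor, was at 32.7 to 49.2 CPM in Romidepsin controls and 21.6 to 26.2 CPM in Romidepsin retinas, and at 45.3 and 43.0 CPM in UNC0642 controls and 46.5 and 28.7 CPM in UNC0642 retinas. H2-Eb1, an MHC class II chain, and Tgtp1, an interferon-inducible GTPase, had differences of -1.04 ± 0.946 and 1.06 ± 0.893, and the latter turned to -0.36 with pooled controls. Ifitm1, an antiviral membrane protein, was the exception on the interferon list, at 1.92 to 6.70 CPM and 16.7 to 37.4 CPM in the Romidepsin experiment and at 3.96 and 13.9 CPM and 3.10 and 4.11 CPM in the UNC0642 experiment, a difference of 3.65 ± 0.846. Cd14, a co-receptor for lipopolysaccharide, was at 1.43 to 3.70 CPM in all 6 libraries of the Romidepsin experiment, 7.65 and 6.23 CPM in UNC0642 controls and 14.6 and 10.8 CPM in UNC0642 retinas, a difference of -1.43 ± 0.429. The lists of Toll-like receptors, chemokines, complement, NF-kB and cytokine feedback had medians of -0.108, -0.0843, 0.337, 0.31 and 0.217. Of their 21, 22, 18, 21 and 26 genes tested, 3, 2, 2, 2 and 3 had an unadjusted p under 0.05. Each of these counts was above the share of 7.89% over all genes. With pooled controls the medians for complement, NF-kB and cytokine feedback turned to -0.106, -0.252 and -0.161. Those for Toll-like receptors and chemokines were then -0.725 and -0.908. For microglia, MHC, interferon-stimulated and interferon-inducible GTPase genes they were -0.386, -0.487, -0.699 and -0.951. With separate controls, leaving out single libraries moved the medians between -0.463 and 0.434 for Toll-like receptors, -0.457 and 0.795 for chemokines, 0.105 and 0.607 for complement, 0.000936 and 0.813 for NF-kB and 0.143 and 0.327 for cytokine feedback. All but the last had their highest value without UNC0642 retina 1, and the lowest came without UNC0642 control 1 for chemokines and NF-kB and without UNC0642 retina 2 for the others. Ccl6, a chemokine of myeloid cells, had a difference of 1.67 ± 0.551, and Cfp, encoding properdin, which stabilises the complement convertase, one of -0.56 ± 0.231.

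No gene of the inhibited enzymes passed the test. Hdac1, Hdac2 and Hdac3 had differences of 0.13 ± 0.192, 0.02 ± 0.182 and 0.10 ± 0.157, and Ehmt1 and Ehmt2 of 0.07 ± 0.171 and 0.14 ± 0.132. Ehmt2 was between 191.5 and 232 CPM and Hdac1 between 48.4 and 65.5 CPM in all 10 libraries. Over 26 genes of HDACs and their partners the median difference was 0.0874. At an unadjusted p under 0.05, 1 gene was higher (4.74% of all genes were), Sin3a, a scaffold of HDAC complexes, with 0.46 ± 0.172. Over 22 genes of H3K9 methylation the median difference was 0.0673, with 3 higher at that level, against the same 4.74%. The largest was Setdb2, a related methyltransferase, at 12.1 to 13.6 CPM in Romidepsin controls and 18.4 to 20.1 CPM in Romidepsin retinas, and at 16.3 and 15.4 CPM in UNC0642 controls and 12.6 and 13.0 CPM in UNC0642 retinas. The effects had opposite signs, 0.60 ± 0.107 and -0.31 ± 0.132, a difference of 0.91 ± 0.170.

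Of the remaining lists, median differences were -0.195 for 25 genes of cholesterol synthesis, 21 of them negative, -0.138 for 18 heat shock genes, 0.185 for 23 genes of growth arrest, 0.0827 for 23 of the integrated stress response, 0.0535 for 28 antioxidant genes, 0.104 for 31 of the Bcl2 family, -0.199 for 19 histone genes, 0.0654 for 26 neurotrophic factors, -0.0433 for 27 imprinted genes and -0.125 for 6 germline genes that passed the filter on low counts. For lens, vascular and blood cell genes they were 0.0595, 0.108 and -0.761, over 8, 18 and 8 genes. In the order of these lists, 0, 4, 6, 1, 3, 5, 0, 4, 3, 1, 0, 2 and 0 genes were higher at an unadjusted p under 0.05 (4.74% of all genes). At that level 1, 5, 0, 5, 1, 0, 5, 4, 2, 0, 0, 0 and 2 were lower (3.15%). The heat shock genes thus went both ways, and no gene of these lists passed the adjustment. Crybb3, a lens crystallin gene, had a difference of 0.74 ± 0.539, or -0.26 with pooled controls. Hbb-b2, a globin gene that marks blood, was at 2.00 to 8.77 CPM in the Romidepsin experiment and 8.24 to 15.2 CPM in the UNC0642 experiment. Hsph1, a chaperone, was at 111 to 128 CPM in Romidepsin controls and 59.2 to 80.4 CPM in Romidepsin retinas, while the UNC0642 libraries were between 127 and 136 CPM. Bmf, a pro-apoptotic member of the Bcl2 family, was at 22.8 to 29.5 CPM and 45.0 to 66.4 CPM in the Romidepsin experiment and between 18.1 and 26.7 CPM in the UNC0642 libraries, a difference of 1.30 ± 0.270. Asns, which encodes asparagine synthetase and is a target of the stress factor ATF4, was at 60.0 to 68.3 CPM and 44.3 to 53.3 CPM in the Romidepsin experiment and at 67.8 and 67.9 CPM and 71.3 and 92.3 CPM in the UNC0642 experiment, a difference of -0.69 ± 0.188. Differences were 0.82 ± 0.233 for Cdkn1c, an imprinted inhibitor of the cell cycle, 0.98 ± 0.242 for Kcnj8, a potassium channel gene of pericytes, 0.91 ± 0.255 for Nqo1, a quinone reductase, and -0.49 ± 0.190 for Sc4mol, an enzyme of sterol synthesis. Mt2, a metallothionein which binds zinc and copper, was at 71.6 to 142 CPM in controls and 234 to 683 CPM in treated retinas, against 275 and 246 CPM in UNC0642 controls and 378 and 319 CPM in UNC0642 retinas.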

How the data were processed

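RNA-seq of 10 whole rd10 retinas was analysed, in 4 groups taken from the labels. According to the authors' methods, libraries were made with a stranded mRNA kit, trimming used BBDuk, alignment to NCBIM37 (mm9, Ensembl genes) used HISAT2 2.2.1 and counting per gene used HTSeq 0.11.2. The strand setting is not given in the sources used here. The deposited values are raw counts of 37991 genes, without normalization. Genes that share reads with a near copy or an overlapping gene are uncertain to that degree.

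All 10 libraries entered 1 fit in edgeR 4.0.16 (R 4.3.3), after filterByExpr and TMM scaling, with 6 residual degrees of freedom. The contrast was the Romidepsin effect less the UNC0642 effect, tested with the quasi-likelihood F test, with Benjamini-Hochberg adjustment over the 16836 genes tested. The likelihood ratio test of the study and DESeq2 1.42.0 were alternatives, as were RLE scaling, other filters, no fold threshold, a replicate block, all 22 whole retinas, the 5 controls pooled and leaving out each library. A term for Xist under 10 CPM was added after the data were seen. The script was tested on simulated data. Standard errors are the log2 values divided by the root of the test statistic. Log2 CPM used a prior count of 2. Replicates differed by more than sampling noise, at 7.225 or more chi-square units per gene in 8 pairs. The labels call them biological replicates and do not name the animals, so p-values measure only the spread between these samples.

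GENCODE M1, which uses that build too, gave symbols and positions of 37205 genes, and RefSeq gave promoters on GRCm38.p6. Of 807 entries in 33 lists, 794 matched 1 gene. No gene was called for the difference, so named genes are, for each list, up to 4 members that passed the adjustment for the difference or otherwise the member with the smallest p, the enzyme genes Hdac1, Hdac2, Hdac3, Ehmt1 and Ehmt2, the genes the study names for these drugs, of which 1 is not reported here, and 3 called genes in each direction between the controls. The members and lists were chosen with earlier results of these data known. Figures were drawn with Python 3.11.15 and matplotlib 3.10.9.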

Additional observations from a re-analysis of the deposited data

How the results depend on the processing

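With 2 libraries in each UNC0642 group and 10 in all, only large differences could pass the adjustment, and the counts depended on the test. The quasi-likelihood test called 0 genes with a larger and 0 with a smaller change after Romidepsin (798 and 531 at an unadjusted p under 0.05). These were 42 and 17 in the likelihood ratio test (38 and 17 with the Xist term), 36 and 15 in DESeq2, 15 and 6 with no filter on low counts, 0 and 3 with all 22 whole retinas and 63 and 48 with 1 shared control group. Genes higher and lower after Romidepsin numbered 228 and 91, and 677 and 370 with no fold threshold, with 127 and 21 under the Xist term. Genes lower after Romidepsin were 216 in the likelihood ratio test, 193 in it with the Xist term, 154 in DESeq2, 181 with no filter and 208 with all 22 retinas. After UNC0642, 9 genes were higher and 5 lower in the likelihood ratio test, 10 and 2 in it with the Xist term, 6 and 3 in DESeq2, 4 higher with no filter, 3 with all 22 retinas and 2 with 1 shared control group. Between the controls, 34 higher and 8 lower became 219 and 54 in the likelihood ratio test, 202 and 69 in it with the Xist term, 7 and 5 in the quasi-likelihood test with that term, 162 and 47 in DESeq2, 183 and 43 with no filter and 64 and 28 with all 22 retinas. The cause was not tested. RLE scaling and at least 10 counts in every library kept each of these counts within 1.5 times.

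Leaving out each library gave 0 to 3 genes with a larger and 0 to 1 with a smaller change after Romidepsin, 30 to 355 higher and 3 to 173 lower after Romidepsin, 0 to 0 higher and 0 to 19 lower after UNC0642, and 1 to 95 higher and 0 to 32 lower in UNC0642 controls. Deviations of same-numbered libraries from their group means had correlations of 0.174, -0.0266 and -0.248 in the Romidepsin experiment and 0.185 in the other. Libraries with unlike numbers had -0.26 to 0.313 in the former and -0.185 in the latter. Deviations from a mean of 2 or 3 libraries depend on each other, so these values cannot decide whether the numbers pair the samples. With a replicate block, 1 gene had a larger change (Bcl3) and 0 a smaller one, and 160 were higher and 50 lower after Romidepsin.

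With 1 shared control group the difference reversed for Crybb3 (-0.2647), Tgtp1 (-0.363), Edn2 (-0.2313), Hdac2 (-0.0888), Fosl1 (-0.6055), Myc (-1.137), Opn1mw (0.9706), Slc14a1 (-1.411) and Trim72 (-1.214), and with the Xist term for Srr (-0.003198, and -0.004115 in the likelihood ratio test). Leaving out a library reversed H2-Eb1, from -1.04 to 0.0905 without UNC0642 retina 1 (lowest -1.64), and genes with a difference near 0, with ranges of -0.1141 to 0.117 for Hdac2, -0.01374 to 0.2261 for Hdac3, -0.002285 to 0.159 for Ehmt1, -0.1036 to 0.4352 for Gnat2, -0.005237 to 0.2346 for Slc14a1, -0.09473 to 0.1529 for Srr and -0.2924 to 0.3514 for Glul.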
